A study of Mus musculus with 10 samples.

Results

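The genes described are Tnfrsf10b, which encodes the mouse receptor for the death ligand TRAIL, and 9 other genes that p53 is known to induce: Cdkn1a, Mdm2, Bax, Bbc3, Pmaip1, Sesn2, Ccng1, Trp53inp1 and Fas. They make up 10 of the 47333 genes in the deposited table, and all 10 were among the 18024 genes with enough reads to test. The set was chosen by gene name with the measured differences between knockout and wild-type lungs in these same samples already known, so the differences of the 10 genes between genotypes are given as descriptions, with no p-value for any of them. The study measured RNA by sequencing in the right middle lobe of the lung of mice lacking Bpifb1, a secreted airway protein of the BPI fold family, and of wild-type mice. All 10 mice were untreated (naïve) C57BL/6J animals 12 weeks old, and cages held both genotypes. The knockout (KO) group had 1 male (KO 1) and 4 females, and the wild-type (WT) group had 2 males (WT 2 and WT 3) and 3 females. The labels do not name the KO allele or say how it was made, and they give each sample its own genotype and sex with no mention of pooling, so each is taken as 1 mouse.

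The transcription factor p53 is kept at a low level in unstressed cells by Mdm2, a ubiquitin ligase that p53 itself induces, so that the pair forms a feedback loop. When p53 is stabilised, for example after DNA damage, it binds response elements in its target genes, which are made of a pair of half-sites. The targets include inhibitors of the cell cycle (Cdkn1a), death receptors at the cell surface (Tnfrsf10b and Fas), BCL2 family proteins that act at the mitochondrion (Bax, Bbc3 and Pmaip1), and genes tied to stress and metabolism (Sesn2, Ccng1 and Trp53inp1). Many of these genes are also transcribed without p53, through the integrated stress response or inflammatory signals among others.

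To show where the letters of a p53 half-site occur near the starts of these genes, windows from 250 bases before to 50 bases after each annotated start were searched on both strands. Windows from RefSeq (GRCm38.p6) were used for 7 of the 10 genes: Cdkn1a, Mdm2, Bax, Bbc3, Sesn2, Ccng1 and Fas. No window was searched for Tnfrsf10b, Pmaip1 or Trp53inp1. Pmaip1 was left out before the search, so its absence here says nothing about half-sites near its start. The 4 windows that held a half-site in the 250 bases before the start are printed 5′ to 3′ on the strand of the gene, with the half-site in capitals. They are Cdkn1a at chr17:29090729-29090978 (plus strand), Mdm2 at chr10:117710759-117711008 (minus strand), Ccng1 at chr11:40755287-40755536 (minus strand) and Bax at chr7:45466899-45467148 (minus strand).
Cdkn1a: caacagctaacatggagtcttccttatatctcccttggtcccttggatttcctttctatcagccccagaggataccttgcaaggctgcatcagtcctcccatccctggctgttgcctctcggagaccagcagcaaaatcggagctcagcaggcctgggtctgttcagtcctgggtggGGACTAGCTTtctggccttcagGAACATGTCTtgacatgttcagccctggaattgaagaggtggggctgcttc
Mdm2: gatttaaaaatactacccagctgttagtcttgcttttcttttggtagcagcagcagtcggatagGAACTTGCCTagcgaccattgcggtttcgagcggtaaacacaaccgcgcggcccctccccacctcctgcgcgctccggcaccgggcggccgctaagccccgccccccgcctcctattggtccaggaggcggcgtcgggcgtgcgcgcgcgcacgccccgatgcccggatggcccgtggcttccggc
Ccng1: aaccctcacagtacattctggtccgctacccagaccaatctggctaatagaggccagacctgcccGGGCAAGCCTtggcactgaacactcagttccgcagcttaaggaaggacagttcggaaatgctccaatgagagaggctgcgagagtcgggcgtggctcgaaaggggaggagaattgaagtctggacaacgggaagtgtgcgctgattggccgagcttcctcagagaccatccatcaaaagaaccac
Bax: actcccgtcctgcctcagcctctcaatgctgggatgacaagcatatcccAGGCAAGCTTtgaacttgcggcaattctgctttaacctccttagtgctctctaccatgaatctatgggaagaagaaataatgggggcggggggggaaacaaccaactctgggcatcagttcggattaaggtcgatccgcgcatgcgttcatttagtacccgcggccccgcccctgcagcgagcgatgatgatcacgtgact

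Only the Cdkn1a window carried a pair of exact half-sites, GGACTAGCTT at 73 to 64 bases and GAACATGTCT at 51 to 42 bases before the start, with 12 bases between them. Near matches, such as tgacatgttc directly after GAACATGTCT, were not marked or counted, so the marked pair need not be the response element. A pair at most 13 bases apart was present in 24 of 32851 mouse windows (0.0731%), whereas 2745 windows (8.36%) held at least 1 half-site. The lone matches were GAACTTGCCT in Mdm2, 186 to 177 bases before its start, GGGCAAGCCT in Ccng1, 185 to 176 bases before, and AGGCAAGCTT in Bax, 201 to 192 bases before. A second Cdkn1a start, with its window at chr17:29093519-29093768, had no half-site. Of other promoter motifs, GGGCGG, the core of the SP1 box, was present in 8 of the 10 windows of the 7 genes (35.7% of all windows). CCAAT was in 4 of the 10 (37.4%) and TATAAA in 0 of the 10 (13.6%). By gene, these were 6, 4 and 0 of 7. These are matches of letters and not measured binding.

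Each library held between 21357424 and 28321294 estimated counts. Levels are given as CPM, counts per 1000000 counts of the library after scaling for its composition, and as TPM, which also divides by exon length. As a check of the labels, Bpifb1 was at 0.614 ± 0.462 CPM (SD, n = 5) in KO lungs and 59.7 ± 23.6 CPM (SD, n = 5) in WT lungs, so that KO lungs averaged 1.03% of the WT level. The library labelled KO 5, a female, had 1.78 CPM of Xist, the RNA that silences an X chromosome, where the other 6 females had 274 to 407 CPM and the 3 males 1.29 to 1.73 CPM. Its sex is therefore uncertain. Male and female below mean the labels. For Tnfrsf10b, Cdkn1a, Fas and Ddit3, comparisons that involve sex are also given without this library, with fits by edgeR alone. In 15 lists of cell type markers, the KO and WT ranges of summed CPM overlapped in all 15. Of 80 marker genes tested, edgeR called 0 between genotypes. At an unadjusted p under 0.05 were 11 (13.8%), beside 17.0% of all genes tested, with 3 of the 6 alveolar type 2 markers among them. The alveolar type 2 sums were 23200 to 26400 CPM in KO and 24100 to 28600 CPM in WT. Over the 15 lists, the correlation (r) of the sum with Tnfrsf10b ran from -0.68 (alveolar type 2) to 0.37 (cardiac muscle), and the part of cell content in it was not tested. DESeq2 called Sftpa1 (log2 fold change of KO over WT -0.23, adjusted p = 0.026), Foxj1 (0.23, 0.049) and Aldh1a1 (-0.18, 0.034), beside 1.92% of all genes. No marker gene was at 0 in every mouse.

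On the TPM scale, the members of the set were present at very different levels, and Tnfrsf10b was the least abundant. Ccng1, which encodes cyclin G1, had the highest mean over the 10 mice, 70.9 ± 8.02 TPM (SD, n = 10). Next came Bax, the pore-forming death effector, at 62.2 ± 5.08 TPM, the cell cycle inhibitor Cdkn1a at 52.3 ± 11.4 TPM and Fas at 48.0 ± 5.81 TPM. These 4 genes were close, since each exceeded the next in only 7 of the 10 mice. Mdm2 followed at 32.5 ± 2.04 TPM, below Fas in all 10 mice and above the autophagy-linked Trp53inp1 (24.6 ± 4.29 TPM) in all 10. Trp53inp1, Bbc3 (23.1 ± 1.40 TPM) and Sesn2 (19.4 ± 2.07 TPM) again lay close, with 7 and 8 of the 10 mice keeping the order of the neighbouring pairs. Pmaip1 stood below Sesn2 in all 10 mice at 10.6 ± 1.38 TPM. Tnfrsf10b, at 2.42 ± 0.627 TPM, was below Pmaip1 in every mouse by a factor of between 3.07 and 6.11. The order of mean TPM over the WT mice alone was the same for all 10 genes.

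**Figure D1:**
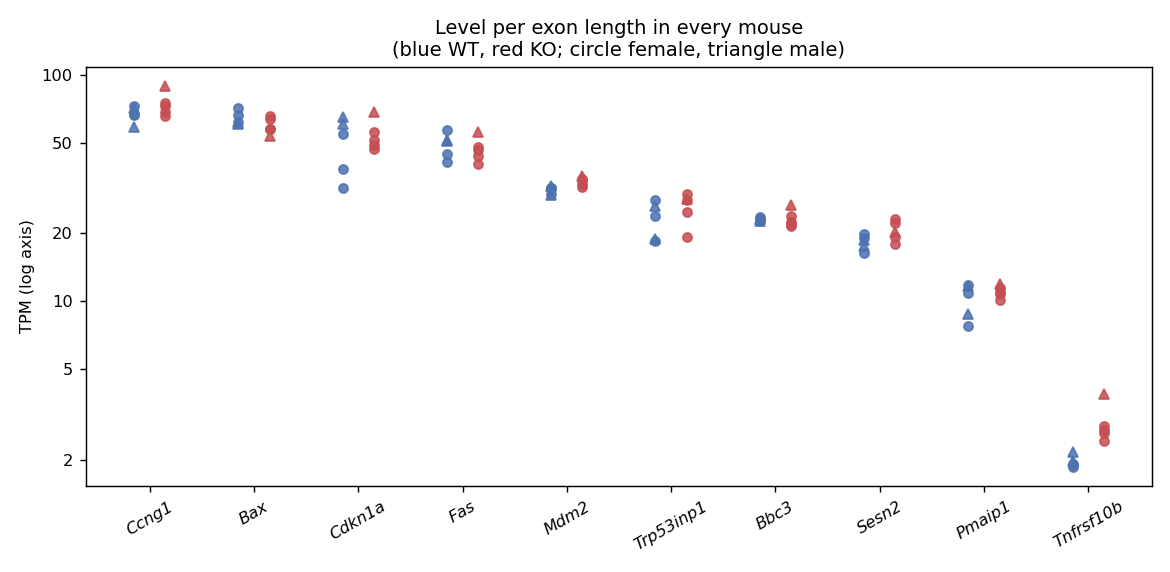
TPM of the 10 genes on a log axis, with 1 point for each of the 10 mice; blue is WT, red is KO, circles are females and triangles are males. Ccng1, Bax, Cdkn1a and Fas share the top of the range, Pmaip1 lies lower, and every mouse has its lowest value at Tnfrsf10b, with a mean of 2.42 TPM.

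Tnfrsf10b lies on chromosome 14 (69767472 to 69784411, plus strand, GRCm38). Its product binds TRAIL and recruits the adaptor FADD and caspase-8. Its level in KO mice 1 to 5 was 8.42, 5.95, 5.81, 5.51 and 5.97 CPM, and in WT mice 1 to 5 it was 4.49, 5.05, 4.82, 4.26 and 4.18 CPM. Every KO mouse was above every WT mouse, and the male KO 1 stood above the other KO mice. The means were 6.33 ± 1.18 CPM in KO and 4.56 ± 0.371 CPM in WT (SD, n = 5 each), a ratio of 1.39. The log2 fold change (log2FC) of KO over WT, fitted with sex as a covariate, was 0.53 with a standard error (SE) of 0.09. This difference was known when the gene was chosen; it ranked 227 of 18024 when all tested genes were ordered from the highest log2FC down. In bulk lung, more cells of a type and more RNA per cell cannot be told apart.

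The Tnfrsf10b values rest on few reads, between 98 and 214 estimated counts a mouse. Counting error alone would give a coefficient of variation of 9.63% at the WT depth and 8.17% at the KO depth. The observed values were 8.14% among WT mice and 18.7% among KO mice, so WT mice varied no more than counting error. The KO value rested on KO 1, since the other 4 KO mice had a coefficient of variation of 3.63%, below the 8.47% of counting error. Within mice labelled female the levels were 5.81 ± 0.211 CPM in KO (SD, n = 4) and 4.31 ± 0.164 CPM in WT (SD, n = 3), a ratio of 1.35. Without KO 5, whose Xist was at the level of the males, the KO value was 5.76 ± 0.224 CPM (SD, n = 3) and the ratio 1.34. Among mice labelled male the KO mouse was at 8.42 CPM and the pair of WT mice at 4.82 and 5.05 CPM, a ratio of 1.71 with a lone KO animal. Without KO 1 the log2FC was 0.43 (SE 0.11), and without the library labelled KO 5 it was 0.54 (SE 0.10). Over all 18 alternative settings it ranged from 0.43 to 0.57. In summed marker CPM, KO 1 was highest of the 10 mice in 3 of the 15 lists (ciliated cells, neutrophils and cardiac muscle) and lowest in 2 (smooth muscle and T cells). KO 2 (2 highest and 3 lowest), WT 2 (3 and 2) and WT 4 (2 and 3) were at the extremes as often, and the remaining mice less often. The part of cell content in the KO 1 level was not tested.

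**Figure D2:**
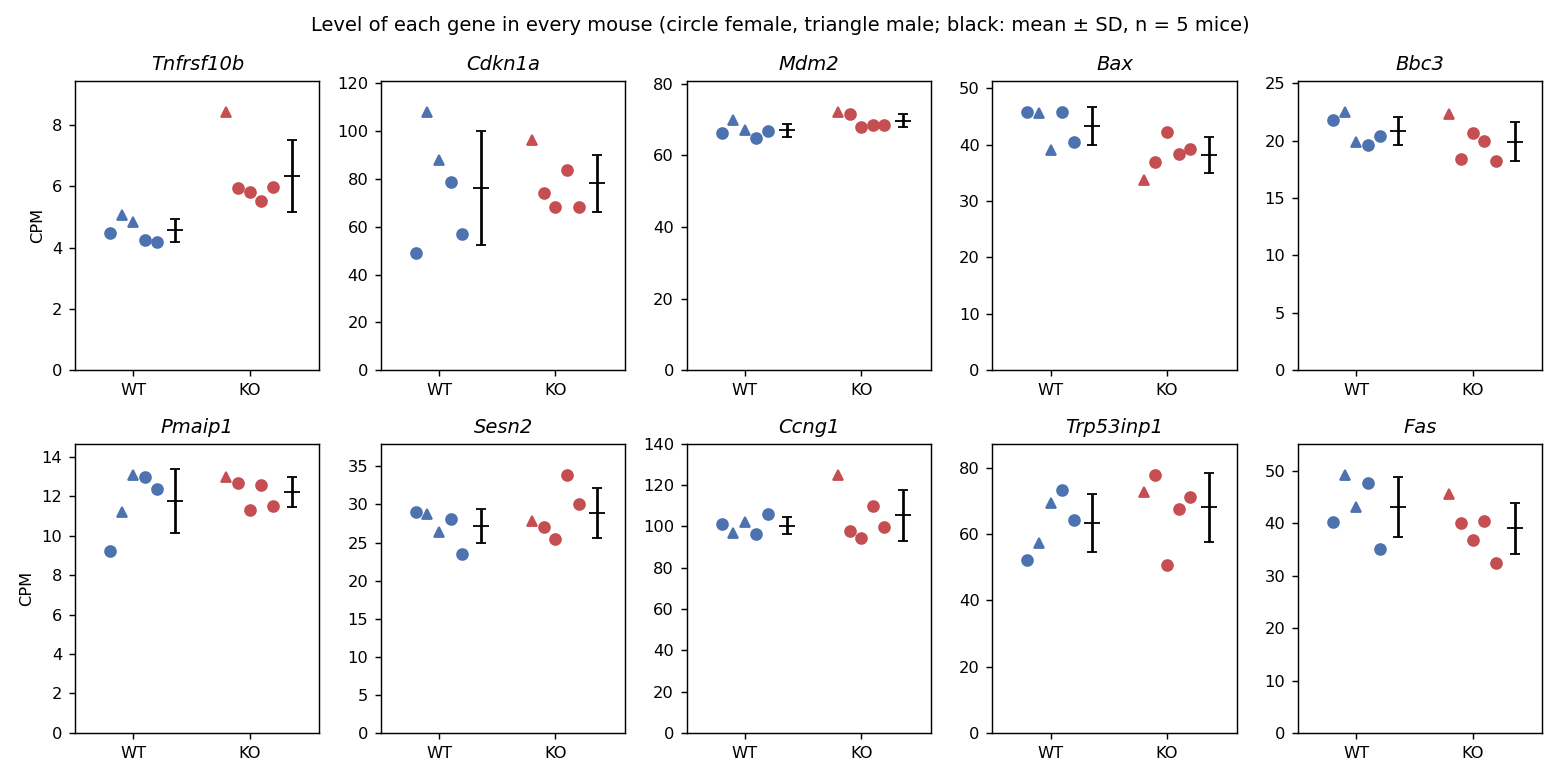
CPM of each of the 10 genes in every mouse, 1 panel a gene with its own axis from 0; blue is WT, red is KO, circles are females, triangles are males, and the black mark is the mean ± SD of 5 mice. The Tnfrsf10b panel is the one in which KO and WT points do not overlap, at 5.51 to 8.42 against 4.18 to 5.05 CPM.

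The other 9 genes overlapped between KO and WT. In a fit across all genes with edgeR's quasi-likelihood test (adjusted p under 0.05 by Benjamini and Hochberg), 0 of the 10 genes were called between genotypes, against 0.0222% of all genes tested. At an unadjusted p under 0.05 there were 2 of 10 against 17.0% of all genes. DESeq2 called 1 of 10 (1.92% of all genes) and limma-voom called 0 of 10 (0.0111%). Groups that did not overlap were seen in 1 of 10 genes, with KO above WT, and in 1.88% of all genes, of which KO lay above WT in 0.960% of all genes. These counts come from the comparison that chose the genes, and nothing is read from them. The median log2FC of the 10 was 0.078, with 7 above 0 and 3 below, beside -0.003 for all genes tested.

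The other death receptor of the set, Fas, lies on chromosome 19 (34290666 to 34327772, plus strand) and binds the ligand FASL. Its level in KO mice 1 to 5 was 45.7, 40.1, 36.8, 40.4 and 32.4 CPM, and in WT mice it was 40.3, 49.3, 43.2, 47.7 and 35.1 CPM. The groups overlapped widely, with the highest value in WT 2 and the lowest in KO 5. The fitted log2FC was -0.10 (SE 0.09), and -0.05 without KO 5, with a range of -0.16 to -0.01 over 18 alternative settings. Its sign was opposite to that of Tnfrsf10b, but its size was close to its SE.

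Among the BCL2 family members, Bax had the largest difference. Bax (chromosome 7, 45461697 to 45466898, minus strand) forms pores in the outer mitochondrial membrane. It was at 33.7, 37.0, 42.3, 38.4 and 39.3 CPM in KO mice 1 to 5 and at 45.8, 45.6, 39.0, 45.8 and 40.4 CPM in WT mice. WT 1, WT 2 and WT 4 stood above every KO mouse, whereas WT 3 and WT 5 lay below KO 3. The means were 38.1 ± 3.16 and 43.3 ± 3.34 CPM (SD, n = 5 each), with a log2FC of -0.21 (SE 0.07) and a range of -0.26 to -0.16 over 18 alternative settings. An annotated gene on the same strand, Gm45808, overlaps Bax and has no counts of its own in the deposited table. Reads from this pair of genes therefore cannot be told apart here.

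Bbc3, which encodes PUMA, and Pmaip1, which encodes NOXA, are BH3-only proteins that bind and block anti-apoptotic BCL2 proteins. Bbc3 (chromosome 7, 16308393 to 16318205, plus strand) was at 22.3, 18.4, 20.7, 20.0 and 18.2 CPM in KO mice and 21.8, 22.5, 19.9, 19.6 and 20.4 CPM in WT mice. The KO range enclosed all but WT 2, the highest value, and the log2FC was -0.04 (SE 0.07). Pmaip1 (chromosome 18, 66458533 to 66465565, plus strand) was at 13, 12.7, 11.3, 12.6 and 11.5 CPM in KO mice and 9.21, 11.2, 13.1, 13 and 12.4 CPM in WT mice. WT 1 was the low value of the series for this gene, and the log2FC was 0.07 (SE 0.10), with the opposite sign in 1 of 18 alternative settings.

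Cdkn1a and Mdm2 are targets often used to read p53 activity. Each overlapped between the genotypes over all 10 mice, and p53 activity itself was not tested. Cdkn1a (chromosome 17, 29090976 to 29100727, plus strand) encodes p21, an inhibitor of cyclin-dependent kinases. It was at 96.4, 74.0, 68.1, 83.9 and 68.3 CPM in KO mice and at 49.0, 108, 88.1, 78.9 and 56.8 CPM in WT mice. WT mice spanned the whole range, from WT 1 at the bottom to the male WT 2 at the top. The means were 78.2 ± 12.0 CPM in KO and 76.1 ± 23.9 CPM in WT (SD, n = 5 each), and the log2FC with sex as a covariate was 0.18 (SE 0.13), ranging from 0.04 to 0.31 over the alternatives.

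Mdm2 (chromosome 10, 117688875 to 117710758, minus strand) was the steadiest of the 10 genes. It was at 72.1, 71.5, 68.0, 68.6 and 68.4 CPM in KO mice and 66.3, 69.9, 67.0, 64.9 and 66.7 CPM in WT mice. Only WT 2 lay within the KO range. The coefficient of variation over the 10 mice was 3.35% for Mdm2 and 23.1% for Cdkn1a, and the Mdm2 log2FC was 0.07 (SE 0.04).

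The stress and metabolism genes also overlapped between genotypes. Sesn2 (chromosome 4, 132492032 to 132510501, minus strand), a sestrin that restrains mTORC1, was at 27.8, 27.1, 25.4, 33.9 and 30 CPM in KO mice and 29.0, 28.7, 26.4, 28.1 and 23.5 CPM in WT mice, with a log2FC of 0.09 (SE 0.08). KO 4 was the highest and WT 5 the lowest. Ccng1 (chromosome 11, 40748552 to 40755311, minus strand) was at 125, 97.9, 94.4, 110 and 99.9 CPM in KO mice and 101, 96.7, 102, 96.2 and 106 CPM in WT mice. KO 1 was the highest here, as for Tnfrsf10b and Mdm2, and the same mouse had the lowest Bax. The Ccng1 log2FC was 0.09 (SE 0.07) over all mice and -0.01 (SE 0.07) in females alone. Trp53inp1 (chromosome 4, 11156431 to 11174379, plus strand) was at 72.8, 77.9, 50.7, 67.6 and 71.2 CPM in KO mice and 52.2, 57.2, 69.5, 73.4 and 64.2 CPM in WT mice. KO 3 was the lowest and KO 2 the highest of all 10, and the log2FC was 0.11 (SE 0.13).

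**Figure D3:**
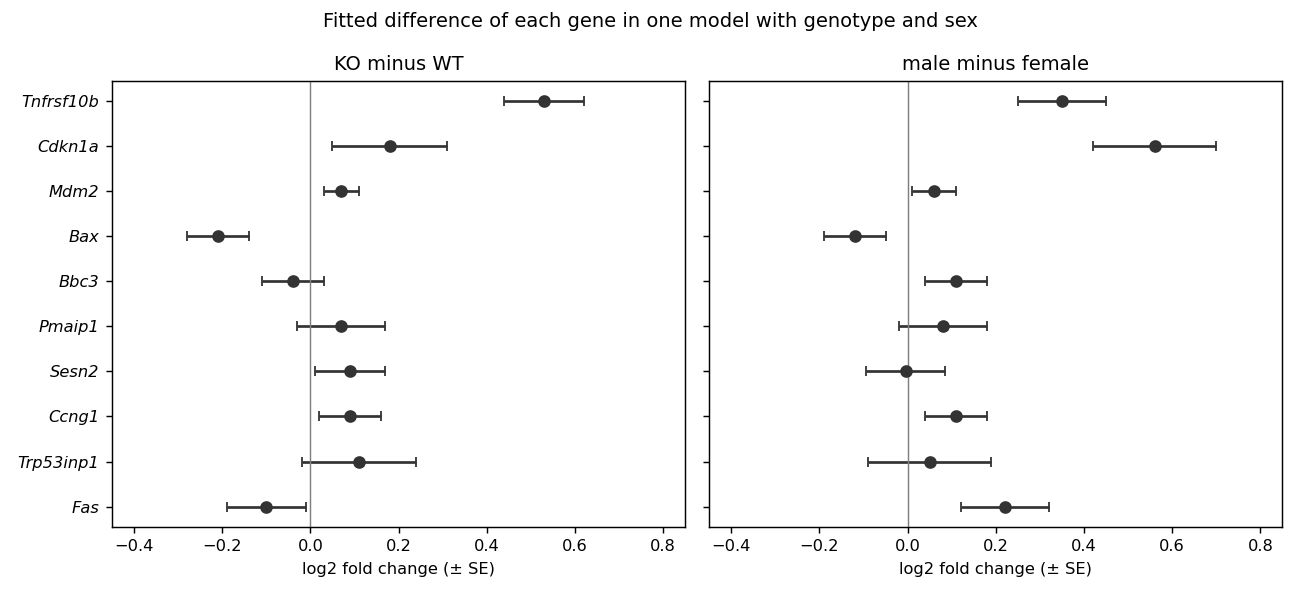
Fitted log2FC of each of the 10 genes for KO minus WT (left) and male minus female (right); points are estimates from a model with genotype and sex, and bars are ± 1 SE. Tnfrsf10b stands farthest right for genotype, at 0.53, and Cdkn1a for sex, at 0.56.

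The sex of the mice was not used to choose the genes, so males and females were compared with a test, with genotype as a covariate. The 3 mice labelled male had more Cdkn1a than any of the 7 labelled female, at 88.1 to 108 CPM against 49.0 to 83.9 CPM. KO 5, with Xist at the level of the males, was at 68.3 CPM, so this separation depends on its label: counted as a male it would make the ranges overlap, and with it left out the 6 other females still spanned 49.0 to 83.9 CPM. The means were 97.5 ± 10 CPM (SD, n = 3) and 68.4 ± 12.2 CPM (SD, n = 7). The log2FC of males over females was 0.56 (SE 0.14), which did not pass the threshold in edgeR (unadjusted p = 0.0026, adjusted p = 0.11). With DESeq2 the adjusted p was 0.003 at a log2FC of 0.57, and over 17 alternatives the adjusted p ran from 0.003 to 0.26, with 2 of them passing. Without the library labelled KO 5 the log2FC was 0.55 (edgeR adjusted p = 0.17), and DESeq2 was not run without that library.

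Of the 10 genes, edgeR called 0 between the sexes, beside 0.583% of all genes tested. At an unadjusted p under 0.05 there were 3, all higher in males, against 15.1% of all genes. They were Cdkn1a, Tnfrsf10b, with a log2FC of 0.35 (SE 0.10, edgeR adjusted p = 0.13), and Fas, with 0.22 (SE 0.10, edgeR adjusted p = 0.30). DESeq2 called 1 of the 10, Cdkn1a, against 2.42% of all genes, and limma-voom called 0. The sexes did not overlap for 1 of the 10, with males above females, and for 4.81% of all genes (2.26% with males above). Without KO 1, the only KO mouse labelled male, the Tnfrsf10b difference between sexes was 0.20 (SE 0.13). Without KO 5 it was 0.35 (SE 0.11, edgeR adjusted p = 0.18), and that of Fas was 0.19 (SE 0.09, edgeR adjusted p = 0.33). Mdm2 (0.06, SE 0.05), Bbc3 (0.11, SE 0.07), Ccng1 (0.11, SE 0.07), Bax (-0.12, SE 0.07), Pmaip1 (0.08), Trp53inp1 (0.05, SE 0.14) and Sesn2 (-0.0043, SE 0.09) had edgeR adjusted p between 0.47 and 0.99. Summed T cell markers also differed in range between the sexes, with sums of 41.7 to 58.6 CPM in females and 36.1 to 40.0 CPM among males. KO 5 was at 47.7 CPM, and the part of these markers in the Cdkn1a levels was not tested.

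The 10 genes did not rise and fall together from mouse to mouse. Over the 10 mice, Pearson's r of log2 CPM between the 45 pairs ran from -0.76 to 0.84 with a median of 0.20, and 34 pairs were positive. These are descriptions over mice that share genotype and sex groups. After the fitted genotype and sex terms were removed, the range was -0.72 to 0.77, the median 0.10 and the positive pairs 27. The highest pair as measured, Tnfrsf10b with Mdm2, went from 0.84 to 0.27 when those terms were removed, and Tnfrsf10b with Bax went from -0.76 to -0.14. By contrast, Pmaip1 with Trp53inp1 (0.78 and 0.77), Cdkn1a with Fas (0.66 and 0.63) and Bax with Ccng1 (-0.71 and -0.66) kept similar values. Tnfrsf10b with Ccng1 was at 0.56 and 0.48. KO 1 was the highest mouse for both genes, and how far these values rest on it was not tested.

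**Figure D4:**
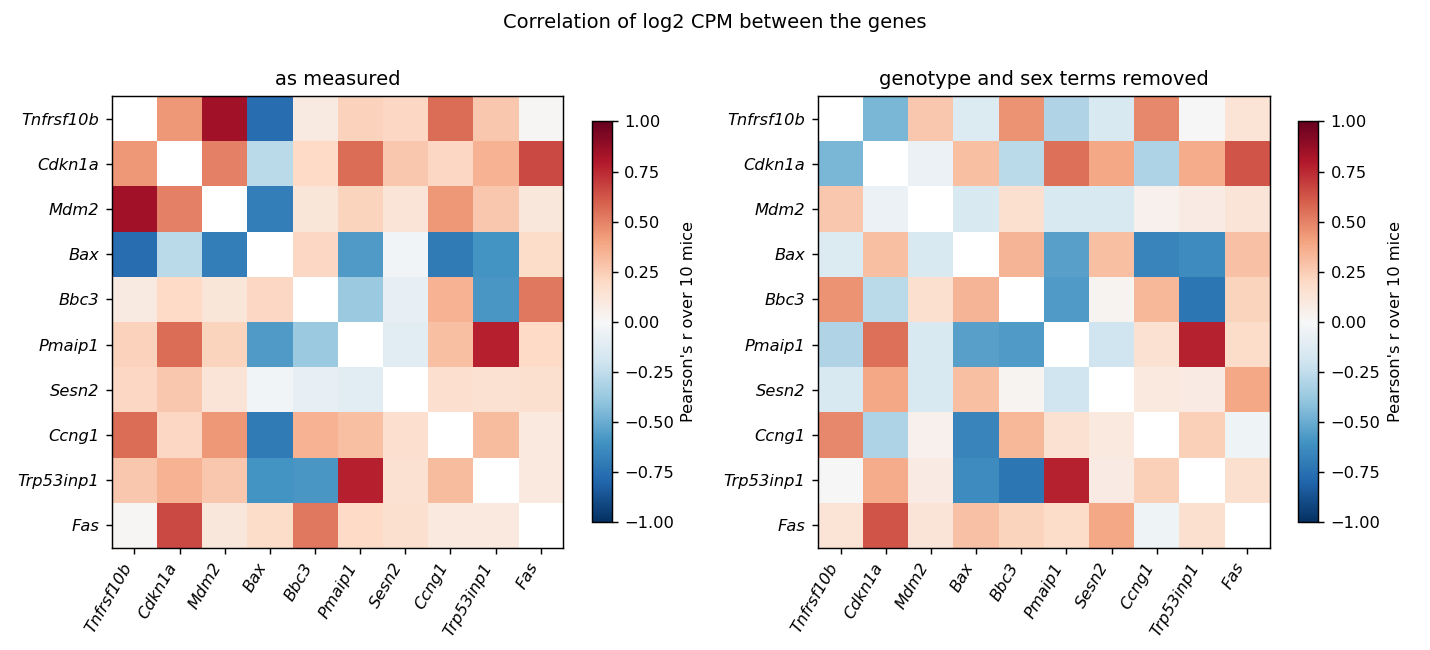
Pearson's r of log2 CPM over 10 mice for every pair of the 10 genes, as measured (left) and after removing the fitted genotype and sex terms (right); red is positive and blue is negative. The pair of Tnfrsf10b and Mdm2 pales from 0.84 to 0.27, whereas Pmaip1 with Trp53inp1 stays at 0.77.

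Among 16280 genes, the 5 with the highest Pearson's r with Tnfrsf10b over the 10 mice were Gm13378, a processed pseudogene (0.948), Traf3ip1 (0.939), Pprc1 (0.936), Tead4 (0.921) and Ptgs2 (0.92). The 3 with the lowest were Map2k5 (-0.963), Cers5 (-0.963) and Telo2 (-0.958). With the genotype and sex terms removed, r was 0.795 for Traf3ip1 and 0.721 for Ptgs2 but 0.441 for Gm13378, 0.375 for Pprc1 and -0.041 for Tead4. All these values include KO 1, whose Tnfrsf10b stood above the other KO mice. How far they rest on that mouse was not tested. By r as measured, Mdm2 ranked 71 and Cdkn1a 3370.

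The genes flanking Tnfrsf10b did not separate the genotypes. Of the 3 tested genes on each side, all 6 overlapped between KO and WT, and edgeR, DESeq2 and limma-voom each called 0, with 1 at an unadjusted p under 0.05 in edgeR. That gene was Chmp7, with a log2FC of -0.12 (SE 0.05, edgeR adjusted p = 0.27). The nearest neighbours, 4930480K23Rik, which ends 358 bases before Tnfrsf10b, and Rhobtb2, which begins 578 bases after it, had log2FC of 0.14 (SE 0.21) and 0.09 (SE 0.05).

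The genes around the p53 pathway were read from fixed lists that leave out the 10 genes, with p-values adjusted over all genes tested. These lists, too, were chosen with earlier results of these data known. A few genes, such as Bid, Apaf1 and Ddit4, are on more than 1 list. Of 44 further p53 targets, edgeR called 0 between genotypes, DESeq2 called 1 (beside 1.92% of all genes) and limma-voom 0. At an unadjusted p under 0.05 there were 9 (20.5%), 5 higher and 4 lower in KO, beside 17.0% of all genes. The list median was -0.002, next to -0.003 for all genes. The gene called by DESeq2 was Btg2, an antiproliferative gene, at 168 ± 10.3 CPM in KO and 134 ± 17.2 CPM in WT (SD, n = 5 each), with every KO mouse above every WT mouse and a log2FC of 0.35 (SE 0.09, edgeR adjusted p = 0.13, DESeq2 adjusted p = 0.013). Its close relative Tob1 had a log2FC of 0.16 (edgeR adjusted p = 0.20), while Ptp4a3 (-0.14, 0.21) and Dcxr (-0.20, 0.22) had negative values.

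Other classical targets had small differences of either sign. Phlda3, an inhibitor of AKT, had a log2FC of -0.15 (edgeR adjusted p = 0.22), and Rps27l one of -0.20 (0.24). Zmat3 was at 0.10 (0.56), Aen, a nuclease, at 0.10 (0.47), and Eda2r, a receptor of the TNF family, at 0.17 (0.60). Of the other sestrins, Sesn3, which is on none of the lists, was higher in every KO mouse than in every WT mouse. It was at 50.6 ± 2.76 against 42.4 ± 3.17 CPM (SD, n = 5 each), with a log2FC of 0.26 (SE 0.06, edgeR adjusted p = 0.12, DESeq2 adjusted p = 0.019). Sesn1 had a log2FC of -0.10 (0.36). In the RefSeq windows, 11 of the 36 further targets matched held a p53 half-site in any window, beside 9.55% of all genes with windows, and 12 of their 54 windows did, beside 8.36% of all windows; 0 held a pair at most 13 bases apart.

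Of 25 regulators of p53, edgeR called 0, DESeq2 called 2 and limma-voom 0, beside 1.92% of all genes for DESeq2. At an unadjusted p under 0.05 were 6 higher genes and 1 lower gene (28% of the list, beside 17.0% of all genes). Trp53, which encodes p53 itself, was at 52.8 ± 3.21 CPM in KO and 53.3 ± 3.39 CPM in WT (SD, n = 5 each), a log2FC of -0.02 (SE 0.06, edgeR adjusted p = 0.91). Its partner and inhibitor Mdm4 was at 0.12 (SE 0.10, edgeR adjusted p = 0.56). The pair called by DESeq2 was Prkdc, the catalytic subunit of the DNA-dependent protein kinase, and Trp53bp1, which acts at DNA breaks. Prkdc was at 22.4 ± 2.46 CPM in KO and 17.7 ± 1.66 CPM in WT, with no overlap (log2FC 0.30, SE 0.08, edgeR adjusted p = 0.13). Trp53bp1 had a log2FC of 0.18 (SE 0.05, edgeR adjusted p = 0.13). The lower gene was Rpl11, a ribosomal protein that binds Mdm2, at -0.29 (SE 0.11, edgeR adjusted p = 0.22).

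Around the receptor itself, 27 further genes of the death receptor pathway gave 0 calls with edgeR, DESeq2 and limma-voom, while 4 higher genes and 1 lower gene reached an unadjusted p under 0.05 in edgeR (18.5%, beside 17.0% of all genes). Tnfsf10, which encodes TRAIL, the ligand of the Tnfrsf10b product, was at 125 ± 12.0 CPM in KO and 121 ± 10.8 CPM in WT (SD, n = 5 each), a log2FC of 0.0056 (SE 0.06, edgeR adjusted p = 0.98). Fasl was low in both groups, at 1.19 ± 0.359 and 1.08 ± 0.362 CPM. Tnfrsf22, a decoy receptor for TRAIL, had a log2FC of 0.38 (SE 0.12, edgeR adjusted p = 0.17), and Cflar, which encodes the caspase-8 inhibitor FLIP, one of 0.24 (SE 0.07, 0.16). The adaptors Tradd (-0.21, 0.26) and Fadd (-0.07, 0.64), the effector Casp8 (-0.07, 0.44) and the caspase-8 substrate Bid (0.02, 0.95) did not pass.

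The BCL2 family list had 19 of 20 genes tested, of which edgeR called 0, DESeq2 called 1 and limma-voom 0, and 2 higher and 3 lower genes had an unadjusted p under 0.05. These are 26.3% of the list, beside 17.0% of all genes, and DESeq2 called 1.92% of all genes. The DESeq2 call was the anti-apoptotic Mcl1, at 390 ± 17.6 CPM in KO and 356 ± 33.2 CPM in WT (SD, n = 5 each; log2FC 0.17, SE 0.05, edgeR adjusted p = 0.17). Bnip3, a mitophagy receptor, was lower in every KO mouse than in every WT mouse (43.1 ± 1.53 against 48.6 ± 3.97 CPM, log2FC -0.19, edgeR adjusted p = 0.17). The BH3-only genes Bcl2l11 (0.17, 0.24) and Bad (-0.15, 0.27) differed in sign. Bak1, the partner of Bax, was at 0.00028 (SE 0.05, edgeR adjusted p = 1), and Bcl2l1, which encodes BCL-XL, at -0.10 (SE 0.09, 0.59).

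The integrated stress response can also induce Tnfrsf10b, through the factor CHOP. Of 21 genes of that response tested (22 listed), edgeR called 0, DESeq2 called 1 and limma-voom 0, with 2 at an unadjusted p under 0.05, both higher. That is 9.52% of the list, below the 17.0% of all genes, while DESeq2 called 1.92% of all genes. The DESeq2 call was Atf3, a stress-induced transcription factor, at 12.5 ± 2.12 CPM in KO and 8.49 ± 1.16 CPM in WT (SD, n = 5 each; log2FC 0.51, SE 0.12, edgeR adjusted p = 0.12). The other was Ddit4, an inhibitor of mTORC1 that is also on the p53 target list (0.52, SE 0.19, edgeR adjusted p = 0.24). Ddit3, which encodes CHOP, was at 23.9 ± 5.63 CPM in KO and 27.0 ± 5.22 CPM in WT, a log2FC of -0.08 (SE 0.10, edgeR adjusted p = 0.69). Atf4 (0.05, 0.70) and Trib3 (-0.15, 0.47), a target of CHOP, did not pass either. Between the sexes, Ddit3 ranged from 27.7 to 35.2 CPM among the 3 males and from 18.2 to 26.0 CPM among the 7 females (log2FC 0.49, SE 0.10, edgeR unadjusted p = 4e-04, adjusted p = 0.057). KO 5 was the lowest of all, and without it the other 6 females ranged from 20.9 to 26.0 CPM (log2FC 0.45, SE 0.09, edgeR adjusted p = 0.055).

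Among 17 cell cycle inhibitors and their partners other than Cdkn1a, edgeR called 0, DESeq2 called 1 and limma-voom 0, and 2 higher and 4 lower genes had an unadjusted p under 0.05. These are 35.3% of the list, beside 17.0% of all genes, and DESeq2 called 1.92% of all genes. The DESeq2 call was Ccnd2, which encodes cyclin D2, at 199 ± 11.9 CPM in KO and 164 ± 13.3 CPM in WT with no overlap (SD, n = 5 each; log2FC 0.28, SE 0.07, edgeR adjusted p = 0.12). Cdk6, a kinase that cyclin D2 activates, was at 0.35 (SE 0.11, edgeR adjusted p = 0.18). The inhibitors of that kinase, Cdkn2d (-0.32, SE 0.08, 0.13) and Cdkn2b (-0.22, SE 0.06, 0.15), had negative values, and Cdkn2d was lower in every KO mouse than in every WT mouse. The other lower genes were Cdk4, also a cell cycle kinase (-0.13, SE 0.05, 0.22), and Pcna (-0.14, SE 0.06, 0.29). Of 20 proliferation genes, edgeR, DESeq2 and limma-voom called 0, and 2 (10%, beside 17.0% of all genes) had an unadjusted p under 0.05, both lower: Cdk1 (-0.31, edgeR adjusted p = 0.24) and Kif20a (-0.28, 0.29). Mki67 was at 0.10 (0.72), and the list median was -0.055, with 4 genes above 0 and 16 below.

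**Figure D5:**
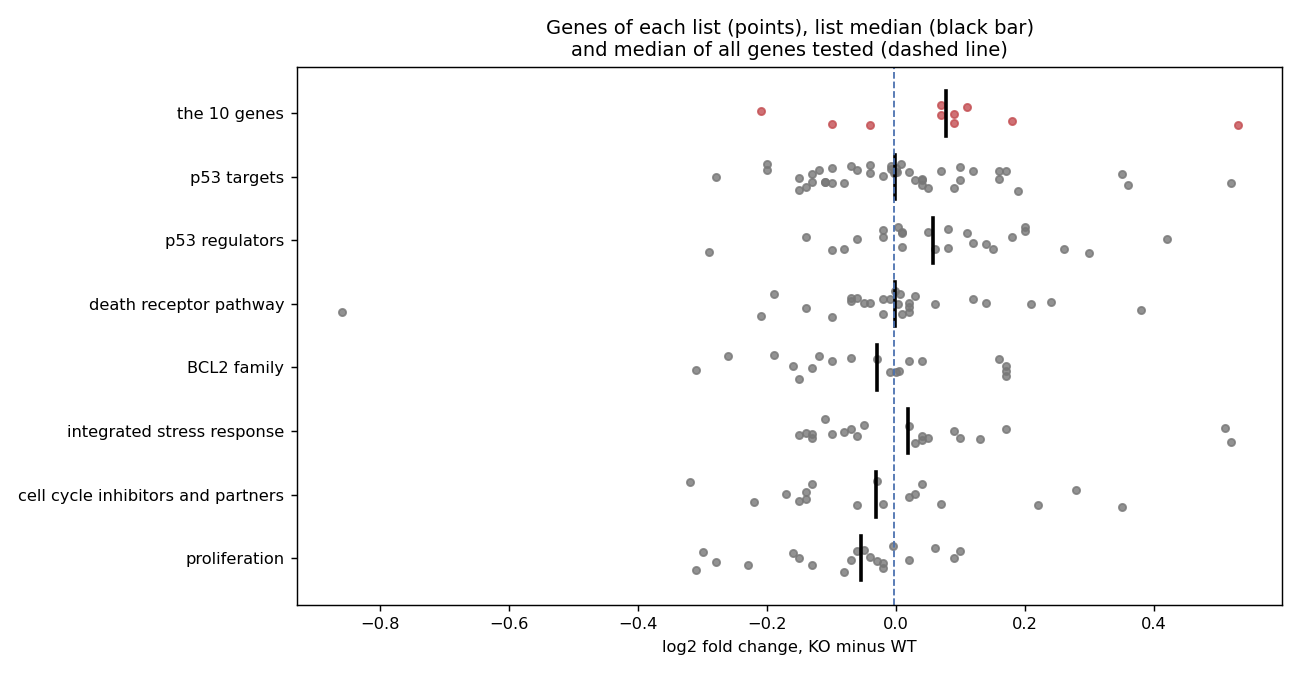
Log2FC of KO minus WT for the 10 genes (red) and for the genes of each list (grey), 1 point a gene; black bars are list medians and the dashed line is the median of all genes tested, -0.003. Genes of each list lie on both sides of 0, and the median of the 44 further p53 targets is -0.002.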

How the data were processed

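RNA from the right middle lung lobe of 10 mice was sequenced as 50-base single-end reads from a stranded mRNA kit, per the labels' protocols. The authors deposited a table of estimated counts per gene. The submitters' processing notes name STAR 2.6.0, Salmon 0.9.1, FastQC and MultiQC and the builds mm10 and GRCm38, with no roles, and the use of strand in counting is not given in the sources used here. The estimated counts were rounded to whole numbers. Of 47333 identifiers, 47281 matched GENCODE M21. Genes were filtered with edgeR's filterByExpr (minimum count 10, minimum total 15), leaving 18024, scaled by TMM and fitted with edgeR 4.0.16 (R 4.3.3; robust quasi-likelihood test, additive genotype and sex, Benjamini-Hochberg over all tested genes). DESeq2 1.42.0 and limma-voom (limma 3.58.1) were alternatives, beside other filters, size factors, covariates and leaving out each mouse in turn. The fit was tested on simulated data first. CPM and TPM were computed here; log2 CPM for correlations used a prior count of 2.

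The 10 genes and the gene lists were chosen with earlier results of these data known. Besides the 10 genes and a preset set of pathway genes, the text names from each list every gene called, or else up to 2 genes a direction with the smallest unadjusted p under 0.05, and the 5 genes most and 3 least correlated with Tnfrsf10b. Of the cell cycle list, all genes with an unadjusted p under 0.05 are named. Replicate numbers follow sample order.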

Additional observations from a re-analysis of the deposited data

Results flagged for a closer look

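One sample stood apart from its group. Tnfrsf10b in KO 1, the only KO mouse labelled male, was at 8.42 CPM, whereas the other 4 KO mice were at 5.51 to 5.97 CPM. The gap to the nearest of them was 0.844 of the range of the group, above Dixon's 95% critical value of 0.71 for 5 samples. The test was made on 20 sets of 5 mice (10 genes in each genotype), of which chance flags about 1 in 20.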

How the results depend on the processing

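The count of genes called between KO and WT over all genes was 4, and it was 346 with DESeq2, 2 with limma-voom, 50 with no filter on low counts and 57 at an adjusted p under 0.1. Leaving out 1 mouse at a time gave 2 to 18, with 18 without WT 3 and 2 without KO 2, KO 4, KO 5 or WT 1. The count between the sexes was 105, and it was 436 with DESeq2, 197 with no filter, 41 with no genotype covariate and 351 at an adjusted p under 0.1. Leaving out 1 mouse gave 0 to 195, with 0 without KO 1 (and 1919 genes at an unadjusted p under 0.05). It was 46 without KO 2, 93 without KO 5, 43 without WT 2 and 195 without WT 4. DESeq2 called 1 further p53 target, 2 p53 regulators, 1 BCL2 family gene, 1 gene of the integrated stress response and 1 cell cycle gene, where edgeR called 0 of each. The sex difference of Cdkn1a passed with DESeq2 (0.57) and without WT 4 (0.67, edgeR adjusted p = 0.037), and ran from 0.45 to 0.67 with 1 mouse left out. That of Sesn2, -0.0043, was 5.2e-05 with DESeq2 size factors and 0.0024 with limma-voom, and -0.06 to 0.04 with 1 mouse left out. With 1 mouse left out, that of Ccng1 ran from -0.03 to 0.17 and that of Trp53inp1 from -0.009 to 0.13. In CPM, 3 of the 10 genes kept their TPM rank. Of the 5 genes most like Tnfrsf10b, Spearman's rho kept 1 and removing the genotype and sex terms kept 0. The causes were not tested. No paired analysis was possible because the replicate numbers follow sample order and pair no mice. Depth limits Tnfrsf10b most, at 98 to 214 counts a mouse.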
